A study of Homo sapiens with 12 samples.

Results

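The let-7 family comprises closely related microRNAs (miRNAs). Its guide strands other than let-7e were followed through small RNA sequencing of a human monocytic cell line. Members were chosen by name among the mature miRNA entries of both deposited tables. All 8 were present in each, namely let-7a-5p, let-7b-5p, let-7c, let-7d-5p, let-7f-5p, let-7g-5p, let-7i-5p and miR-98-5p. They stood among 285 mature miRNAs and 1231 noncoding RNAs in the table without LPS, and among 262 and 1139 in the table with LPS. let-7e-5p is given beside them where the family as a whole is described.

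Mono Mac 6 (MM6) cells are an established human monocytic line. 5-LOΔ MM6 cells carry a CRISPR/Cas9 knockout (ALOX5 -/-) of the gene for 5-lipoxygenase, the enzyme that starts leukotriene synthesis. Wild-type and 5-LOΔ cells were both differentiated with TGF-β (1 ng/mL) and calcitriol (50 nM), for 72 h according to the labels. They were then left without or stimulated with LPS, a bacterial wall component (1 µg/mL, 6 h), which gives 4 groups of 3 samples. The methods describe the knockout cells as lentivirally transduced, puromycin-selected single-cell clones and describe no such steps for the wild-type cells. The methods state that results of the knockout clones were comparable, which is why both were used in the whole study. The labels leave the clone behind each knockout sample unnamed, so knockout and clone cannot be told apart in these data.

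The deposited levels are 1 mean of normalized counts per group, so no test between groups could be made from them and every difference below is a description. The p-values of the authors' own comparison were not used. The relative depths of the 3 libraries of each group were recovered from the low means. They differed up to 1.41-fold among the wild-type libraries, 1.84-fold among the 5-LOΔ, 2.58-fold among the wild-type LPS and 1.60-fold among the 5-LOΔ LPS libraries. From them a 95% counting interval was computed, which covers the sampling of reads only. A wider interval adds the spread between libraries, taken from other mature miRNAs with means of 5 to 10, because the spread of the members themselves is not known. This borrowed spread was a coefficient of variation of 0.174 in wild-type cells and of 0.332 to 0.361 in the other groups. All 5 monocytic marker miRNAs (miR-223-3p, miR-142-3p, miR-142-5p, miR-146a-5p and miR-146b-5p) were above 0 in every group. Their summed level was mostly miR-146b-5p and, as a share of all mature miRNAs, was 1.81% for wild-type, 2.47% for 5-LOΔ, 4.89% for wild-type LPS and 7.53% for 5-LOΔ LPS cells. miR-223-3p ran the other way, at 0.0916%, 0.0656%, 0.0648% and 0.0525%, as did miR-142-3p, at 0.0956%, 0.0840%, 0.0805% and 0.0727%. The markers of liver, muscle and red cells were not listed. Of the neuronal markers miR-124-3p was not listed, and miR-9-5p had 16.2 normalized counts in wild-type, 42.3 in 5-LOΔ, 19.7 in wild-type LPS and 21.2 in 5-LOΔ LPS cells. The epithelial miR-200c-3p had 1.19 and 1.00 normalized counts in the wild-type groups and was listed at 0 in the 5-LOΔ groups.

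let-7 miRNAs are cut by Drosha and Dicer from hairpin precursors, and the 5p strand is loaded into Argonaute as the guide. They repress growth and proliferation genes such as those of the RAS family, MYC and HMGA2, and the RNA-binding protein LIN28 blocks the maturation of most of them. The family is low in embryonic cells and abundant in differentiated ones, including cells of the monocyte lineage.

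The mature sequences of the 8 members and let-7e-5p (RefSeq, GRCh38.p14) are shown to make clear how little separates the molecules whose levels are compared. Capitals mark the seed, bases 2 to 8 from the 5′ end.
let-7a-5p: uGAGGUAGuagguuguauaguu
let-7c: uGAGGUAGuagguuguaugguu
let-7b-5p: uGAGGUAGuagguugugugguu
let-7f-5p: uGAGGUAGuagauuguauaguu
let-7d-5p: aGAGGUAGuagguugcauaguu
let-7g-5p: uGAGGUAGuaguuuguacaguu
let-7i-5p: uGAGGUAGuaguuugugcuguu
miR-98-5p: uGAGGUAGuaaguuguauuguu
let-7e-5p: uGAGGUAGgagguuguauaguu

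All 9 guide strands were 22 bases long and had the same seed in each of the 36 pairs. Counted from the 5′ end with let-7a-5p as reference, let-7c differed at A19G, let-7b-5p at A17G and A19G, and let-7f-5p at G12A. let-7d-5p differed at U1A and U16C, let-7g-5p at G12U and U18C, and miR-98-5p at G11A and A19U. let-7i-5p was the farthest from let-7a-5p, with G12U, A17G, U18C and A19U. let-7e-5p carried U9G. Only 4 of the 36 pairs were 1 base apart, which were let-7a-5p with let-7c, with let-7f-5p and with let-7e-5p, and let-7b-5p with let-7c. How many mismatches were allowed when reads were assigned is not given in the sources used here. Whether such neighbours share reads was not tested. miR-4458 and miR-4500 are the other human miRNAs in RefSeq with this seed, and neither was listed in the tables.

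The 8 guide strands come from 11 hairpin genes on 7 chromosomes (GRCh37, which is hg19, the build of the tables, with GENCODE gene names), and in each gene the mature sequence was found once. MIRLET7A1, MIRLET7F1 (96938629 to 96938715) and MIRLET7D (96941116 to 96941202) form a cluster on chromosome 9 (forward strand), with 303 and 2400 bases between them. All lie over exons of the lncRNA gene MIRLET7A1HG. MIRLET7A3 lies 863 bases before MIRLET7B on chromosome 22. MIRLET7F2 (53584153 to 53584235) and MIR98 (53583184 to 53583302) lie 850 bases apart in an intron of HUWE1 on the reverse strand of chromosome X. On chromosome 21, MIRLET7C takes up bases 17912143 to 17912236 (forward strand), over an exon of MIR99AHG, and MIRLET7A2 is on chromosome 11 in an intron of MIR100HG. On chromosome 3, MIRLET7G takes up bases 52302292 to 52302379 (reverse strand), in an intron of WDR82. MIRLET7I is on chromosome 12 at bases 62997466 to 62997550 (forward strand), in an intron of MIRLET7IHG. let-7b, let-7c, let-7d, let-7g, let-7i and miR-98 thus each have 1 gene, whereas let-7a has 3 and let-7f has 2.

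let-7f-5p and let-7a-5p were the most abundant members in every group. let-7f-5p had 5749 normalized counts in wild-type, 8063 in 5-LOΔ, 5115 in wild-type LPS and 6594 in 5-LOΔ LPS cells (the authors' means, here and below). The levels of let-7a-5p in the same order were 3886, 6075, 3329 and 5074. Leaving out the miR-3607 entries, they ranked 3 and 4 among the mature miRNAs of both groups without LPS. let-7i-5p followed with 1624, 2515, 1404 and 1749 normalized counts, and let-7g-5p with 1314, 1748, 1069 and 1298. miR-98-5p, which shares a HUWE1 intron with one of the let-7f genes, had 664, 796, 604 and 721. All of these rested on at least 1802 reads or their equivalent in a group, giving counting errors of at most 2.36%.

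The remaining members lay between 26.7 and 218 normalized counts. let-7d-5p, processed from the same chromosome 9 cluster as let-7a-1 and let-7f-1, had 158, 218, 128 and 170 normalized counts. let-7b-5p had 51.4 in wild-type, 163 in 5-LOΔ, 47.9 in wild-type LPS and 136 in 5-LOΔ LPS cells. let-7c was the lowest, with 30.6, 60.1, 26.7 and 50.9, and its counting error was 7.68 to 11.2%. Every member had its highest mean in 5-LOΔ cells without LPS and its lowest in wild-type cells with LPS, although means of the separately normalized tables share no scale. let-7e-5p ran the other way, with 197 in wild-type, 71.2 in 5-LOΔ, 217 in wild-type LPS and 68.8 in 5-LOΔ LPS cells.

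**Figure D1:**
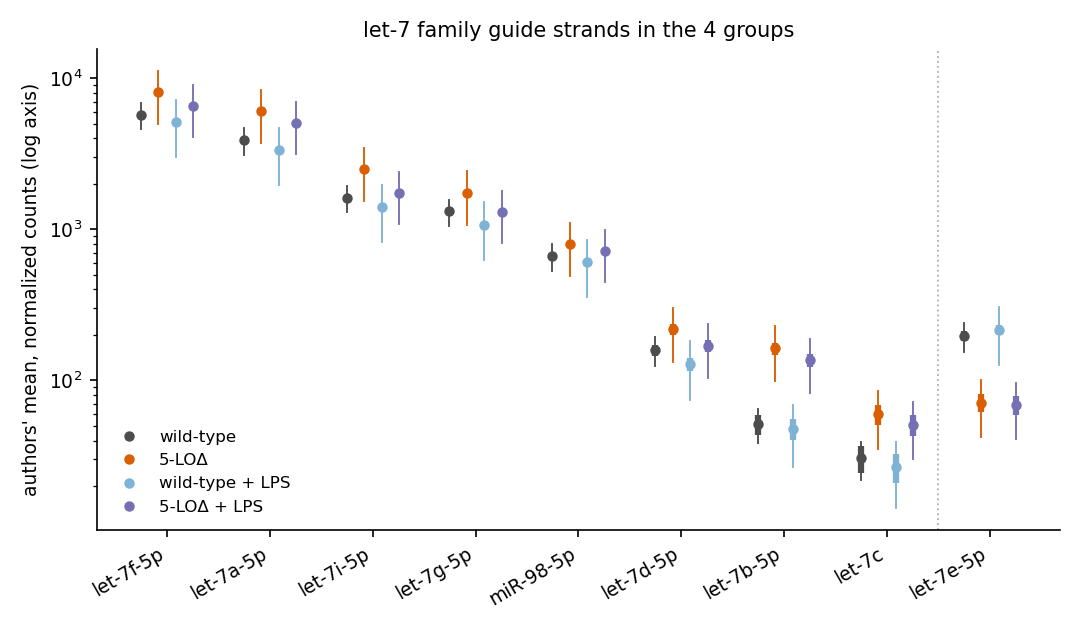
The authors' mean of normalized counts (log axis) of each member, and of let-7e-5p right of the dotted line, in the 4 groups. Thick bars are 95% counting intervals and thin bars add the borrowed spread between libraries. In each table the 5-LOΔ point lies above the wild-type point for the 8 members, as deposited, and below it for let-7e-5p; for miR-98-5p (both tables), let-7g-5p and let-7i-5p (with LPS) this order turns when mature miRNA sums without miR-3607 are set equal.

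The order of the 8 members was the same in the 4 groups (let-7f, let-7a, let-7i, let-7g, miR-98, let-7d, let-7b, let-7c), and what moved was the place of let-7e-5p. It stood above let-7d-5p in both wild-type groups and between let-7b-5p and let-7c in both 5-LOΔ groups. Not every step of the order was larger than the borrowed spread. In wild-type cells let-7i-5p and let-7g-5p lay 0.31 apart on the log2 scale (-0.10 to 0.71 with spread), and let-7e-5p and let-7d-5p also lay 0.31 apart (-0.12 to 0.75). In 5-LOΔ cells let-7f-5p and let-7a-5p lay 0.41 apart (-0.37 to 1.19) and let-7d-5p and let-7b-5p 0.42 apart (-0.38 to 1.22), so neither pair was separated. Nor were let-7i-5p and let-7g-5p (0.53, -0.26 to 1.31) or let-7e-5p and let-7c (0.25), and the last pair was not separated by counting either (-0.048 to 0.54). In wild-type LPS cells 5 neighbouring pairs were within the spread, and in 5-LOΔ LPS cells 4 were. The gap from let-7a-5p to let-7i-5p (1.25 to 1.54) and that from miR-98-5p to the next member exceeded the spread in all groups.

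The family was concentrated in few molecules. let-7f-5p and let-7a-5p together held 71.5% of the sum of the 8 members in wild-type, 72.0% in 5-LOΔ, 72.0% in wild-type LPS and 73.9% in 5-LOΔ LPS cells. Adding let-7i-5p and let-7g-5p brought this to between 93.1% and 93.7%. let-7b-5p, let-7c and let-7d-5p together held 1.78%, 2.25%, 1.73% and 2.26%. The most abundant member exceeded the least abundant by 188-fold in wild-type and 134-fold in 5-LOΔ cells without LPS, and by 192-fold and 129.5-fold with LPS.

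The first question of the design was how the loss of 5-LO changes the level of miRNAs, and it was asked within each table. As deposited, all 8 members were higher in 5-LOΔ than in wild-type cells in both tables, while scaling to equal mature miRNA sums without miR-3607 turned miR-98-5p without LPS and let-7g-5p, let-7i-5p and miR-98-5p with LPS to log2 values from -0.071 to -0.0093. Of all mature miRNAs with both means above 0, 56.3% were higher in 5-LOΔ cells without LPS and 55.3% with LPS, and of those with both means of at least 10, 67.0% and 63.1%. Without LPS, let-7b-5p differed by 1.67 on the log2 scale and let-7c by 0.98. let-7a-5p (0.64), let-7i-5p (0.63), let-7f-5p (0.49), let-7d-5p (0.46), let-7g-5p (0.41) and miR-98-5p (0.26) followed. The median of the 8 was 0.56, beside 0.10 over the 206 mature miRNAs with both means above 0 and 0.17 over the 106 with both means of at least 10. Setting this last median to 0, every member lay above it, miR-98-5p by 0.09 at the least and let-7b-5p by 1.49 at the most.

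let-7b-5p, let-7c, let-7a-5p and let-7i-5p, or 4 of the 8, were at least 1.5-fold higher in 5-LOΔ cells without LPS, against a background of 24.8% of mature miRNAs. let-7a-5p (1.56-fold) and let-7i-5p (1.55-fold) lay just above this limit and let-7f-5p (1.40-fold) below it, and once the scale was moved by any of the 4 alternatives let-7b-5p and let-7c were the 2 members left. On those scales the background among mature miRNAs with both means of at least 10 was 10.4% (equal sums of all noncoding RNAs), 11.3% (equal mature sums), 6.60% (equal mature sums without miR-3607) and 10.4% (median of 0). No member was at least 1.5-fold lower (background 18.4%), and let-7b-5p was the 1 member at least 2-fold higher (background 12.1%). Among the mature miRNAs with both means of at least 10, which all members were, 21.7% were 1.5-fold higher and 3.77% 1.5-fold lower. Every counting interval lay above 0. With the borrowed spread, the intervals of let-7b-5p (0.99 to 2.34) and let-7c (0.26 to 1.70) stayed clear of 0, those of let-7a-5p and let-7i-5p began just above it (at 0.022 and 0.0072), and the other 4 included 0. On the scale of the median mature miRNA, let-7a-5p and let-7i-5p had differences of 0.47 and 0.46, under the half-width of 0.62 that the spread alone gives. let-7c fell short of its half-width of 0.72 under 1 of the 4 scalings, that to equal mature sums without miR-3607 (0.65), and let-7b-5p under none. The neuronal marker miR-9-5p was higher in the same cells (16.2 and 42.3 normalized counts), and its part in these differences was not tested. Among the 69 mature miRNAs with both means of at least 50, let-7b-5p had the highest ratio and let-7e-5p the lowest.

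With LPS the members kept their order at both ends. let-7b-5p was 2.83-fold higher in 5-LOΔ cells (log2 interval 0.65 to 2.35 with spread) and let-7c 1.91-fold (0.038 to 1.82), whereas the wider intervals of the other 6 included 0. Under the 4 alternative scalings let-7c differed by 0.60 to 0.86, each time less than its half-width of 0.89, so its interval then included 0, while that of let-7b-5p stayed above 0. On the log2 scale let-7a-5p differed by 0.61, let-7d-5p by 0.41, let-7f-5p by 0.37, let-7i-5p by 0.32, let-7g-5p by 0.28 and miR-98-5p by 0.26. The median of the 8 was 0.39, beside 0.10 over the 190 mature miRNAs with both means above 0 and 0.15 over the 103 with both means of at least 10. let-7b-5p, let-7c and let-7a-5p, or 3 of the 8, were at least 1.5-fold higher (background 22.1%), and none was at least 1.5-fold lower (background 17.4%). let-7b-5p alone was at least 2-fold higher (background 11.1%). With both means of at least 10, 17.5% of mature miRNAs were 1.5-fold higher and 3.88% 1.5-fold lower. Under each of the 4 alternative scalings let-7b-5p and let-7c were the 2 members past 1.5-fold with LPS too, where the background with both means of at least 10 was 12.6%, 7.77%, 4.85% and 7.77% in the order given above. The wild-type and 5-LOΔ samples of this table are other libraries than those of the first, but the labels do not say whether the cells came from the same cultures or clones.

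**Figure D2:**
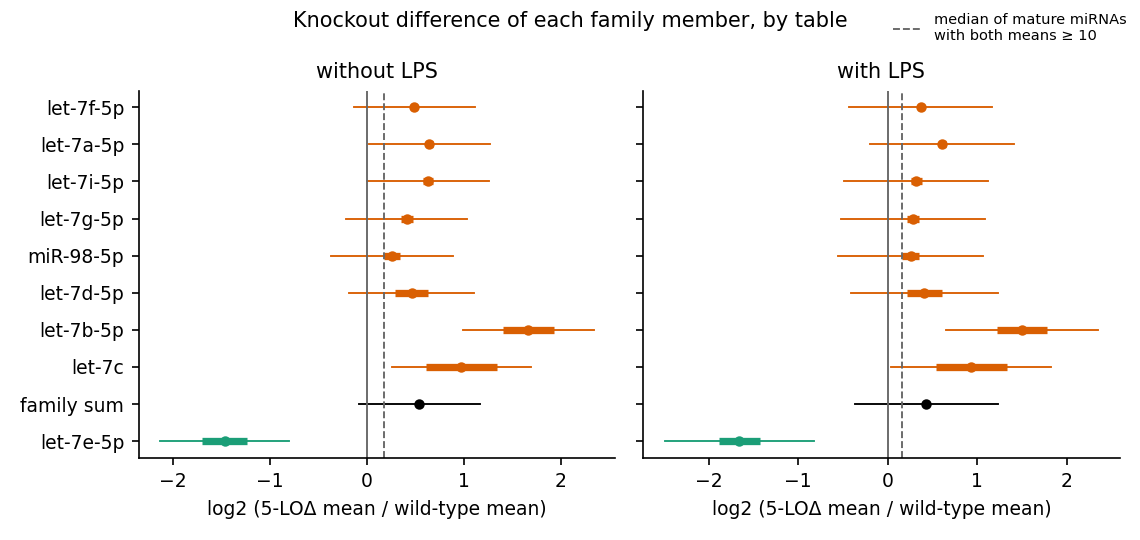
The log2 ratio of the 5-LOΔ mean to the wild-type mean for each member, their sum and let-7e-5p, without LPS (left) and with LPS (right). Thick bars are 95% counting intervals, thin bars add the borrowed spread, and the dashed line is the median of mature miRNAs with both means of at least 10 (0.17 and 0.15). let-7b-5p and let-7c lie farthest right and let-7e-5p far left of 0 in both panels; miR-98-5p (both panels), let-7g-5p and let-7i-5p (right) fall below 0 when mature miRNA sums without miR-3607 are set equal.

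Summed over the 8 members, the means came to 13477 (wild-type) and 19638 (5-LOΔ) without LPS, a log2 difference of 0.54 (counting interval 0.52 to 0.56, with spread -0.08 to 1.17). With LPS they came to 11723 and 15793, a difference of 0.43 (0.41 to 0.45, with spread -0.37 to 1.23). The members with the largest ratios added little to these sums. Of the 6162 normalized counts by which the sum was higher without LPS, 37.6% were let-7f-5p, 35.5% let-7a-5p and 14.5% let-7i-5p, while let-7b-5p made up 1.81% and let-7c 0.479%. Of the 4069.6 with LPS, 42.9% were let-7a-5p and 36.3% let-7f-5p, and 2.16% were let-7b-5p.

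Shares of the family do not depend on the scaling between groups, and they show which members moved apart. let-7b-5p was 0.382% of the family in wild-type and 0.831% in 5-LOΔ cells without LPS, a log2 ratio of shares of 1.12 (0.45 to 1.80 with spread). With LPS it was 0.409% and 0.859%, a ratio of 1.07 (0.22 to 1.92). It was the only member whose share differed between the genotypes by more than the borrowed spread, in either table. These intervals give that spread to the member alone and none to the family sum. For the ratio of let-7b-5p to let-7a-5p, where both carry the spread, the interval with LPS included 0. The share of let-7c was 0.227% and 0.306% without LPS and 0.228% and 0.322% with LPS, beyond counting error but within the spread. That of let-7a-5p went from 28.8% to 30.9% without LPS and from 28.4% to 32.1% with LPS. let-7f-5p made up 42.7% and 41.1% without LPS and 43.6% and 41.8% with LPS, so its share was lower in the 5-LOΔ cells of both tables. The shares of let-7g-5p (9.75% and 8.90%, then 9.12% and 8.22%) and of miR-98-5p (4.93% and 4.05%, then 5.15% and 4.57%) were also lower. let-7i-5p was the member whose share turned between the tables, from 12.0% to 12.8% without LPS and from 12.0% to 11.1% with LPS. In all, 3.39% of the family was distributed differently between the genotypes without LPS and 4.28% with LPS.

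**Figure D3:**
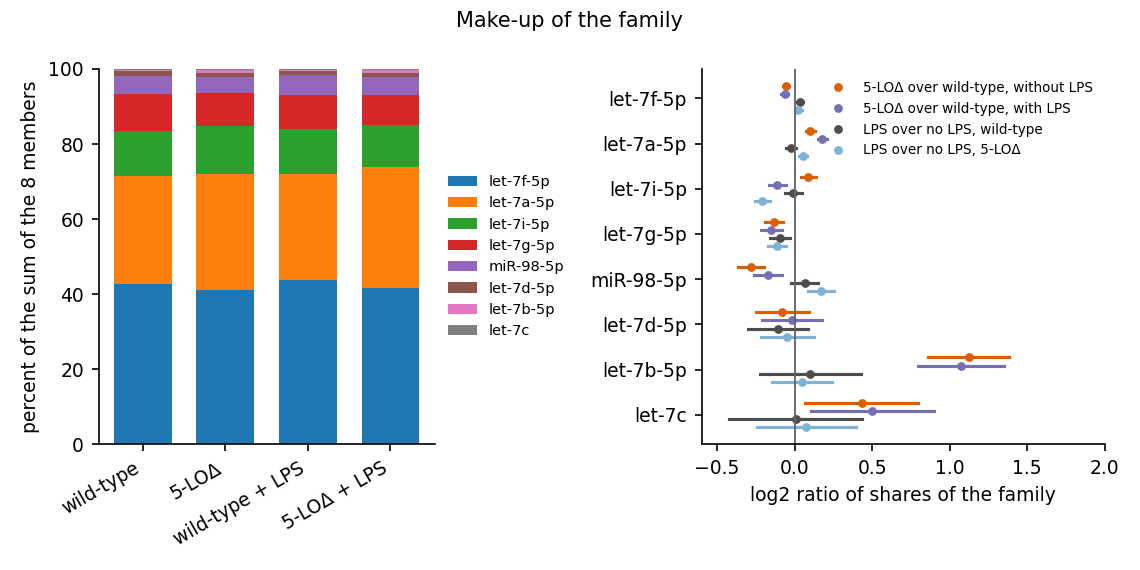
Left, each member as a percent of the sum of the 8 members in the 4 groups. Right, the log2 ratio of a member's share between genotypes (in each table) and between LPS and no LPS (in each genotype), with 95% counting intervals; only let-7b-5p between genotypes lies near 1.

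Ratios between members of one group need no scaling either. let-7b-5p was 1.32% of let-7a-5p in wild-type and 2.69% in 5-LOΔ cells, and 1.44% and 2.67% with LPS. The log2 change of this ratio was 1.02 without LPS (0.10 to 1.94 with spread) and 0.89 with LPS (-0.27 to 2.06). let-7b and let-7a-3 lie side by side on chromosome 22, but let-7a-5p also comes from chromosomes 9 and 11. let-7c was 0.786% of let-7a-5p in wild-type, 0.989% in 5-LOΔ, 0.802% in wild-type LPS and 1.00% in 5-LOΔ LPS cells. Its log2 change between genotypes was 0.33 without LPS (counting interval -0.03 to 0.70), so the difference of let-7c from let-7a-5p, 1 base away, was not detectable at this depth. let-7c was 59.4% of let-7b-5p in wild-type and 36.8% in 5-LOΔ cells. Which part of the let-7c count came from reads of let-7a or let-7b was not tested.

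let-7d-5p, let-7a-1 and let-7f-1 share the chromosome 9 cluster. let-7d-5p, which has no gene elsewhere, was 2.75% of let-7f-5p in wild-type, 2.71% in 5-LOΔ, 2.50% in wild-type LPS and 2.57% in 5-LOΔ LPS cells. The log2 change between genotypes was -0.03 without LPS (counting interval -0.20 to 0.15) and 0.04 with LPS (-0.15 to 0.24). Against let-7a-5p it was 4.07%, 3.59%, 3.84% and 3.34%, changes between genotypes of -0.18 (-0.36 to -0.0072) and -0.20 (-0.40 to -0.00031). miR-98-5p was 11.6% of let-7f-5p in wild-type and 9.87% in 5-LOΔ cells, and 11.8% and 10.9% with LPS. let-7f-5p stood at 1.48 times let-7a-5p in wild-type and 1.33 times in 5-LOΔ cells, and at 1.54 and 1.30 times with LPS. These changes of -0.16 (-0.20 to -0.11) and -0.24 (-0.29 to -0.19) were beyond counting error. let-7i-5p stood at 1.24, 1.44, 1.31 and 1.35 times let-7g-5p in the 4 groups. All the changes in this paragraph lay within the borrowed spread.

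Among the ratios examined, the widest change was between let-7e-5p and let-7b-5p. Without LPS these had the lowest and the highest knockout ratio among the 69 mature miRNAs with both means of at least 50. A wide change therefore follows from pairing them. In wild-type cells let-7e-5p was 3.82 times let-7b-5p and in 5-LOΔ cells 0.437 times, a log2 change of -3.13 (-4.08 to -2.19 with spread). With LPS the values were 4.53 and 0.507, a change of -3.16 (-4.35 to -1.97). Between let-7e-5p and let-7a-5p the change was -2.11 (-3.02 to -1.20) without LPS and -2.27 (-3.42 to -1.11) with LPS. The lower level of let-7e-5p in 5-LOΔ cells is a sequencing result only. By qRT-PCR the study found this miRNA unaffected in both knockout and knockdown cells. It leaves the discrepancy unexplained and names unspecific sequencing of this miRNA as a possible reason, which was not tested here.

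**Figure D4:**
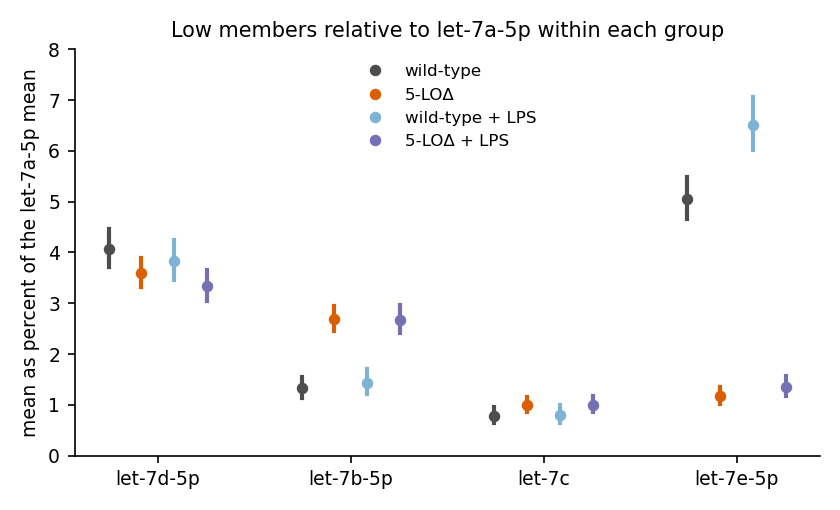
let-7d-5p, let-7b-5p, let-7c and let-7e-5p as a percent of the let-7a-5p mean of the same group, with 95% counting intervals. let-7b-5p moves from 1.32% and 1.44% in the wild-type groups to 2.69% and 2.67% in the 5-LOΔ groups, and let-7e-5p from 5.06% and 6.52% to 1.17% and 1.36%.

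The second question was how LPS, an activator of monocytes, bears on the same miRNAs. Because the tables were normalized separately, it was addressed through shares of the mature miRNA sum. The family held 13.2% of it in wild-type and 12.6% in wild-type LPS cells, a log2 ratio of -0.07 (counting interval -0.08 to -0.05). In 5-LOΔ cells it held 17.3% without and 14.3% with LPS, a ratio of -0.28 (-0.29 to -0.26). The intervals with spread, -0.72 to 0.59 and -1.05 to 0.50, included 0. Over the mature miRNAs with means of at least 10 in both states, the median ratio was -0.13 in wild-type (104 miRNAs) and -0.23 in 5-LOΔ cells (103 miRNAs), beside -0.07 and -0.24 for the 8 members.

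In 5-LOΔ cells the share of each member was lower with LPS (background 77.7% of mature miRNAs with means of at least 10), from -0.48 for let-7i-5p (2.22% to 1.59%, with spread -1.26 to 0.29) to -0.10 for miR-98-5p (0.702% to 0.654%). In wild-type cells 7 of 8 were lower (background 76.0%), from -0.17 for let-7d-5p to -0.0015 for miR-98-5p, and let-7b-5p, the exception, had 0.0502% without and 0.0514% with LPS. No member differed beyond the borrowed spread. miR-146b-5p, a miRNA induced by LPS, was part of the same sum and went from 1.24% to 3.97% of it in wild-type and from 1.88% to 6.56% in 5-LOΔ cells. Without miR-146b-5p and the 2 miR-3607 entries, the family held 23.8% and 23.3% in wild-type cells and 27.8% and 26.0% in 5-LOΔ cells. On that basis 5 of 8 members were lower with LPS in wild-type cells (background 73.3%) and 7 of 8 in 5-LOΔ cells (background 64.0%). The median ratio was then -0.032 for the members and -0.10 for all mature miRNAs in wild-type, and -0.058 and -0.062 in 5-LOΔ cells.

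The largest part of that sum in every group was miR-3607-5p with miR-3607-3p, which came to 43.4% for wild-type, 35.8% for 5-LOΔ, 42.0% for wild-type LPS and 38.5% for 5-LOΔ LPS cells. Leaving them out, the family held 23.2%, 27.0%, 21.7% and 23.3%. As a share of all noncoding RNAs, which include snoRNA, rRNA and precursor entries, it held 0.125%, 0.162%, 0.121% and 0.155%. With each of these denominators the share was higher in 5-LOΔ than in wild-type cells in both tables. These shares restate the difference of the family sum under the matching scalings, and its intervals with the borrowed spread included 0 in both tables.

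**Figure D5:**
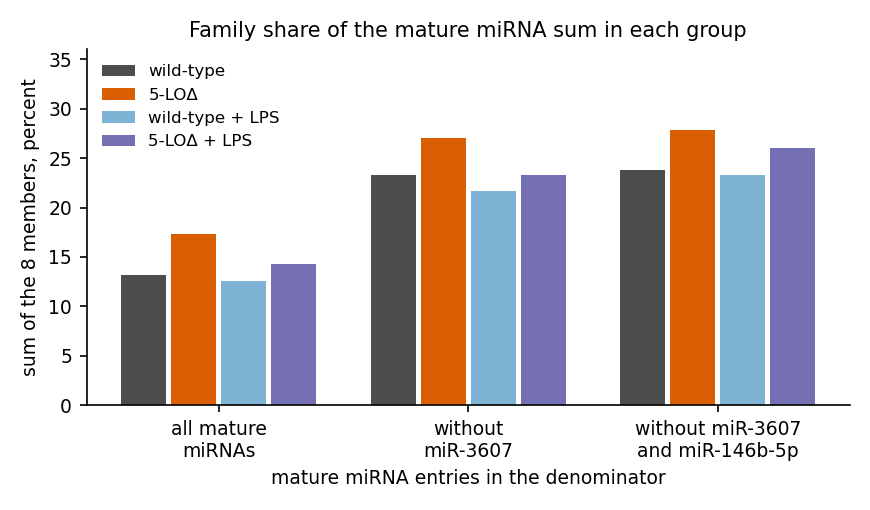
The sum of the 8 members as a percent of the mature miRNA sum in each group, with all entries, without the miR-3607 entries and without these and miR-146b-5p. The bars have no error bars since each is 1 value per group. 5-LOΔ bars are the higher in each pair, from 14.3% against 12.6% to 17.3% against 13.2% with all entries. With the borrowed spread, the interval of the knockout difference of the family sum included 0 in both tables.

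Within the family the summed share differences were smaller between the LPS states of one genotype than between the genotypes. No interval was computed for these sums. Counted over the 8 shares, 1.23% of the family was distributed differently between wild-type cells with and without LPS and 2.44% between 5-LOΔ cells with and without LPS. In 5-LOΔ cells let-7i-5p went from 12.8% to 11.1% of the family (difference -1.73 points, counting interval -2.13 to -1.33) and let-7a-5p from 30.9% to 32.1% (1.19 points, 0.61 to 1.77). let-7b-5p differed by 0.03 points in each genotype, within counting error. None of these differences exceeded the borrowed spread.

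Guide strands made up nearly all reads of their hairpins, except for let-7d. Its passenger strand, let-7d-3p (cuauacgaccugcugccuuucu), is the one counted often enough to describe. It held 6.45% of both arms in wild-type (Wilson 95% interval 4.64 to 8.89), 6.67% in 5-LOΔ (5.01 to 8.84) and 6.56% in wild-type LPS cells (4.54 to 9.40). In 5-LOΔ LPS cells it held 2.86% (1.72 to 4.74). Its reads in each library were recovered, in order of size factor, with weaker evidence without LPS, where the means of 10.9 and 15.6 exceed 10. The wild-type libraries held 13, 10 and 11 reads, the 5-LOΔ libraries 22, 13 and 12, the wild-type LPS libraries 15, 5 and 9, and the 5-LOΔ LPS libraries 10, 2 and 4. Among the other passenger strands of the 8 members the highest share was the 0.526% of miR-98-3p in wild-type cells. let-7b-3p, let-7c-3p and let-7a-2-3p were not listed.

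The hairpin entries added no view of single genes where a guide has several. The let-7a-1, let-7a-2 and let-7a-3 entries each held 33.2% to 33.4% of their sum in every group, and let-7f-1 and let-7f-2 held 48.7% to 49.2% and 50.8% to 51.3%. The entries were nearly equal in each group, so levels of single let-7a or let-7f genes cannot be told apart. The entries of let-7b and let-7c equalled the guide strand in every group.

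Few neighbours of let-7 genes in the same transcripts were listed, all at low levels. miR-99a-5p, beside let-7c on chromosome 21, was listed at 0 in wild-type and 5-LOΔ LPS cells and had 0.499 and 0.388 normalized counts in 5-LOΔ and wild-type LPS cells, all under the 0.972 to 1.07 that 3 reads would give. miR-125b-2-3p had 0.800 in wild-type, 4.93 in 5-LOΔ, 2.79 in wild-type LPS and 2.85 in 5-LOΔ LPS cells. Its 5-LOΔ level was above the 1.06 that 3 reads give there and came from 9, 5 and 2 reads. miR-125b-5p was listed only with LPS, with 2 reads in a single wild-type LPS library. miR-99a-3p, miR-100-5p, miR-100-3p, miR-125b-1-3p and both miR-4763 arms were not listed.

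Each member's share of the mature sum was compared over the 4 groups with that of the family sum, as the root mean square difference of centred log2 shares. let-7f-5p (0.03), let-7d-5p (0.05), let-7a-5p (0.07), let-7i-5p (0.07), let-7g-5p (0.09) and miR-98-5p (0.13) are members of that sum, and let-7f-5p with let-7a-5p make up most of it, which fixes much of their likeness, while let-7e-5p lay at 1.04, and let-7b-5p and let-7c were not compared because they had means under 50. Of the 54 other mature miRNAs with 4 means of at least 50, the likest were miR-30d-5p, miR-423-3p and miR-30e-5p (0.07 each), then miR-92a-3p and miR-155-5p (0.09 each). miR-30d-5p held 0.586%, 0.836%, 0.538% and 0.614% of the mature sum in wild-type, 5-LOΔ, wild-type LPS and 5-LOΔ LPS cells. miR-92a-3p held 9.76%, 11.0%, 9.22% and 10.1%. The median of the 54 was 0.22. With 4 means that share a denominator and libraries, this is a description of likeness only.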

How the data were processed

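Small RNA of 12 samples (4 groups of 3) was sequenced by the authors from size-selected libraries. Per the methods and labels, reads were annotated with the web tool omiRas on hg19, whose output is normalized counts. Its version, scaling and allowed mismatches are not stated in what was read here. The signal values deposited by the authors are means of normalized counts per genotype, in 1 table without and 1 with LPS, normalized separately. The log2, p-value and FDR columns of their own comparison were not used. The study describes the experiments as independent, and its methods give a longer differentiation time than the labels.

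Members and lists were chosen with earlier results of these data known. The named entries were the 8 members with let-7e-5p, their other arms, hairpins and cluster partners, miRNAs with the same seed, the 5 likest miRNAs and miR-3607. The planned rule gave no test for means, so log2 ratios of means were taken without a pseudocount and a call was a 1.5-fold difference.

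Size factors were recovered from means of at most 10, all of which came out as whole reads in exactly 1 way within 6 significant digits (378, 439, 361 and 352 values in wild-type, 5-LOΔ, wild-type LPS and 5-LOΔ LPS cells). When moved off their printed value, 0.17% to 1.16% still did, and 21.3% to 44.2% of means from 10 to 20, so members' reads per library were not recovered. The size factors were 1.25, 1.02 and 0.883 in wild-type, 1.34, 0.945 and 0.725 in 5-LOΔ, 1.72, 1.07 and 0.665 in wild-type LPS, and 1.30, 0.835 and 0.812 in 5-LOΔ LPS cells. A counting interval of 95% followed from them, equivalent to 79.7 reads at the least (let-7c, wild-type LPS) and 22773 at the most (let-7f-5p, 5-LOΔ). Intervals and floors cover counting error only, since no molecular identifiers are given. Exactly 1 read was rare (66 values against 220 of exactly 2 in wild-type cells), so a 0 may hide single reads. The spread between libraries was the moment estimate over 15 to 20 mature miRNAs with means of 5 to 10 in each group. Recovery and counting intervals were tested on simulated tables without spread between libraries, and the wider intervals were not tested. Mature sequences came from RefSeq (all 9 names matched) and genes from GENCODE lifted to GRCh37.

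Alternatives were scalings to equal sums of all or of mature means and to the median mature miRNA, pseudocounts of 0.1, 1 and 10, a 2-fold call, minimum means of 10 and 50 and other denominators. Scaling without miR-3607 and the denominator without miR-146b-5p were chosen after seeing the data. Scripts ran in Python 3.11.15 (numpy 2.4.6, scipy 1.17.1, pandas 2.3.3, matplotlib 3.10.9).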

Additional observations from a re-analysis of the deposited data

How the results depend on the processing

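Each scaling lowered every knockout difference by its own constant. The shifts were 0.17 (sums of all noncoding RNAs), 0.15 (mature sums), 0.33 (mature sums without miR-3607) and 0.17 (median mature miRNA) on the log2 scale without LPS, and 0.070, 0.24, 0.33 and 0.15 with LPS. Setting equal sums of all noncoding RNAs, equal mature miRNA sums or a median of 0, the difference of the family sum was 0.37, 0.40 and 0.37 without LPS and 0.36, 0.19 and 0.28 with LPS. With equal mature sums without miR-3607, chosen after seeing the data, it was 0.22 and 0.10, and miR-98-5p turned to -0.066 without LPS and let-7g-5p, let-7i-5p and miR-98-5p to -0.047, -0.0093 and -0.071 with LPS. The members past 1.5-fold without LPS were 2 under each of these scalings, and past 2-fold there was 1 without and 1 with LPS. Pseudocounts of 0.1, 1 and 10 left all 8 members higher in both tables. Adding let-7e-5p to the sum left its difference within the counting interval. The share of the family was 23.2%, 27.0%, 21.7% and 23.3% without miR-3607 and 0.125%, 0.162%, 0.121% and 0.155% of all noncoding RNAs in wild-type, 5-LOΔ, wild-type LPS and 5-LOΔ LPS cells. Its log2 ratio of LPS to no LPS was -0.10 in wild-type and -0.21 in 5-LOΔ cells without miR-3607, and -0.031 and -0.094 without miR-3607 and miR-146b-5p, also chosen after seeing the data. Without let-7a-5p and let-7f-5p in the denominator, 3 share ratios that lay within counting error changed sign. They were those of let-7d-5p between genotypes with LPS (-0.020 to 0.079), of let-7d-5p between LPS states of 5-LOΔ cells (-0.048 to 0.053) and of let-7i-5p between LPS states of wild-type cells (-0.0091 to 0.018). Adding let-7e-5p turned the first of these as well. The share of mature miRNAs at least 1.5-fold higher was 12.9% with LPS for means of at least 50, beside 1 of the 6 members with such means. The cause of the other moves was not tested.

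No paired analysis was possible because the deposited columns are means that carry no replicate number. Leaving out single libraries was not run, since reads of the members' libraries could not be recovered. Depth limits the passenger strands more than the guide strands, and the spread between libraries of the passenger strands was not estimated. Among the members, counting error was largest for let-7c (10.3% of its mean in wild-type and 7.68% in 5-LOΔ cells). With the borrowed spread its error was 14.4% and 21.0%. If the members' own spread, which is not known, is like the borrowed one, it is the larger limit outside wild-type cells for every member.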
